A study of Homo sapiens with 6 samples.

Results

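The heterogeneous nuclear ribonucleoproteins (hnRNPs) and their close relatives were examined in MDA-MB-231 cells after silencing of Sam68. The set held 34 genes, chosen by symbol: the HNRNP genes, SYNCRIP, RALY, the poly(C)-binding PCBP genes, the polypyrimidine tract-binding PTBP genes, TARDBP, EWSR1, TAF15, TIA1 and TIAL1. Each was found on 1 locus, so that 34 of the 74852 loci of the deposited table were members, and all 34 were among the 18849 loci with a mean normalized read count of at least 10 that were tested. MDA-MB-231 is an established human cell line of triple-negative breast cancer. Cells of the si-CTRL group (3 libraries) had received a pool of 4 control siRNAs, and cells of the si-SAM68 group (3 libraries) a pool of 4 siRNAs against KHDRBS1, the gene encoding Sam68. By the sample labels, both groups were grown in high-glucose DMEM, were transfected in 2 rounds with Lipofectamine RNAiMAX and were collected 24 h after the last round, whereas the methods of the study state another medium and another harvest time. Polyadenylated RNA was sequenced, so that the values are mRNA levels of a transient knock-down in a single cell line. No source used here says whether the 3 libraries of a group came from separate cultures, and the p-values therefore measure the spread between these libraries only.

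HnRNPs bind nascent pre-mRNA as it leaves RNA polymerase II, package it, and take part in exon choice, polyadenylation, nuclear export, stability and translation. Many of them act as repressors of exons, in competition with SR proteins, and several limit their own mRNA by splicing in or out an exon that leads to decay. Sam68 is an RNA-binding protein with a KH domain of the STAR family, which regulates alternative splicing and is known to work together with hnRNP A1 in the choice of splice sites. A count of reads per gene does not see exon choice, protein level or protein localization.

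A siRNA can lower an mRNA other than its target where its seed, bases 2 to 8 of the guide strand, pairs with the 3′UTR. The 4 siRNAs of the si-SAM68 pool are shown because such a pairing would bear on every mRNA level given for this group. They are written as the sense strand, 5′ to 3′, with bases 12 to 18 in capitals. These 7 letters are the ones that a 3′UTR must hold to pair with the guide seed.
siSAM68_1: gcacccauaugGACGUUAu
siSAM68_2: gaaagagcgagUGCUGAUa
siSAM68_3: uaugauggaugAUAUCUGu
siSAM68_4: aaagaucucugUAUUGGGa
All 4 matched KHDRBS1 over 19 of 19 bases. The longest run shared with any transcript of a member was 11 bases, between siSAM68_4 and PTBP1, and 10 bases for each of the other siRNAs. Taking for every gene its longest GENCODE 3′UTR (GRCh38), a match of 7 bases to at least 1 of the 4 was found in 10 of the 34 members (29.4%), compared with 29.8% of 11960 genes. These genes stand on loci with a single symbol, whereas 7 members share a locus, whose fold change is that of the whole locus. The length of the 3′UTR, 267 (HNRNPM) to 10333 bases (PTBP2) among the members, was not matched. By siRNA, the matches were found in 0, 8, 4 and 5 members, in the order given above. The sites in HNRNPLL and TIA1 are shown because HNRNPLL is one of the splicing factors named by the study and TIA1 is the member matched by the most siRNAs of the pool. The capitals again mark the 7 matched bases, and all sites lie in a 3′UTR on the minus strand of GRCh38.
HNRNPLL, siSAM68_2, chr2:38562257-38562286: aagttgggcctTGCTGATagatttatacac
TIA1, siSAM68_2, chr2:70210900-70210929: ctatgcagttgTGCTGATatttcattaagt
TIA1, siSAM68_2, chr2:70209985-70210014: ctcattttcctTGCTGATacttgttgaaaa
TIA1, siSAM68_3, chr2:70211892-70211921: tactaaagaaaATATCTGaaatgtgataag
TIA1, siSAM68_4, chr2:70210065-70210094: tcagtggtttaTATTGGGttactgtttaac
TIA1, which encodes a stress granule and U1 snRNP-recruiting protein, had normalized read counts of 2418, 2602 and 2816 in the si-CTRL libraries and 2486, 2561 and 2655 in the si-SAM68 libraries. The groups overlapped, and the log2 fold change was -0.02 ± 0.08 (SE; limma, adjusted p = 0.892). The median log2 fold change was -0.03 over the 10 members with a match and -0.04 over the 24 members without one. Over the 11960 genes the medians were -0.006 with a match and -0.008 without. Of the 7 members that were lower in si-SAM68 with no overlap between the groups, described below, HNRNPF held a match (to siSAM68_2). HNRNPAB, TAF15, PTBP1, PCBP4, PCBP1 and HNRNPK held none. For the control pool, a match was found in 22 members (64.7%, compared with 56.3% of genes), with a median of -0.03 for these and -0.14 for the 12 others. Over the genes the medians were 0.011 with a match and -0.032 without. Whether seed pairing acted on any of these mRNAs was not tested.

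The libraries held between 52625492 and 82568487 reads on all loci. The rRNA precursor locus held 15.1% of the total in si-SAM68 replicate 2, against 1.83% to 3.17% elsewhere, and si-CTRL replicate 1 stood apart from the other control libraries for many genes, hnRNP genes included (described at the end of the section). The silencing was checked first. KHDRBS1 had normalized read counts (reads divided by the size factor of the library) of 15660, 14483 and 14737 in si-CTRL and of 583, 602 and 670 in si-SAM68. The log2 fold change was -4.60, and a two-sided exact permutation test gave p = 0.1, the smallest p that 3 against 3 libraries allow. Markers of this cell line were present in every library, with VIM between 138300 and 173162. Of the 7 such markers, 3 were higher (CAV1, KRT18 and KRT8) and 1 lower (ZEB1) in si-SAM68 at an adjusted p under 0.05. Over all tested loci the shares were 4.47% higher and 6.23% lower. PGR was listed at 0 and CDH1 reached 4.6, EPCAM 9.2 and ESR1 15.2 at most, whereas GATA3 (331 to 542) and FOXA1 (786 to 1393), listed as absent markers, were present, and FOXA1 was higher in si-SAM68 (1.56-fold; limma, adjusted p = 0.00351). Markers of leukocytes, T cells, endothelium, erythroid cells and hepatocytes were at or near 0, the highest value being 16.2 for PECAM1.

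The mean normalized read counts of the members over all libraries ran from 305 (PCBP3) to 108691 (HNRNPA2B1). Their summed share of all reads averaged 1.63% in si-CTRL and 1.49% in si-SAM68. Together the 34 loci took 1.72%, 1.59% and 1.59% of all reads in the si-CTRL libraries, and 1.55%, 1.33% and 1.59% in the si-SAM68 libraries, in replicate order. The low value belonged to the library with the high rRNA share. Without the rRNA locus the shares were 1.75%, 1.63% and 1.64% in si-CTRL and 1.59%, 1.57% and 1.62% in si-SAM68. The si-SAM68 shares then lay just below the control shares with no overlap, and the nearest libraries of the groups stood at 1.63% and 1.62%.

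Per kilobase of the longest coding transcript, the levels of the 27 members whose locus bears a single symbol spanned a wide range. The highest in si-CTRL was PCBP1 with 32239 ± 899 normalized reads per kb (SD, n = 3), an intronless gene whose product binds poly(C) tracts. HNRNPA2B1 followed with 30018 ± 2667, HNRNPK with 27847 ± 361, HNRNPF with 24563 ± 545 and HNRNPC with 14424 ± 2587. HNRNPA2B1 differed from neither PCBP1 nor HNRNPK by more than its own SD, whereas the steps from HNRNPK to HNRNPF and on to HNRNPC exceeded the SDs. At the other end were PTBP2, the form of PTB that prevails in neurons, with 75.2 ± 10.8 normalized reads per kb, and PCBP3 with 140 ± 25.9. This order depends on the transcript length used, which was 12014 bases for PTBP2 and 2202 for PCBP3. Without division by length PTBP2 was above PCBP3, with si-CTRL means of 903 and 309 normalized reads. Which transcripts these cells express was not determined, and the SDs of all members leave that uncertainty out. PTBP3 had 899 ± 69.9 per kb and HNRNPLL 536 ± 81.5 per kb, compared with 3709 ± 363 per kb for HNRNPL. The other 7 members sit on loci that join a member with a pseudogene, small RNA or neighbouring gene (HNRNPA1, HNRNPA3, HNRNPH2, HNRNPU, HNRNPUL2, PCBP2 and PTBP1) and were not placed in this order.

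Few hnRNP mRNAs were called as changed after silencing of Sam68, and those changes were small. At an adjusted p under 0.05, 2 of the 34 members (5.88%) were called, both lower in si-SAM68 (HNRNPAB and TAF15), whereas 10.7% of all tested loci were called, 4.47% as higher and 6.23% as lower. At the thresholds of the study, an unadjusted p of at most 0.05 with a fold change of at least 1.5, 0 of 34 were called, compared with 7.67% of all loci. An unadjusted p under 0.05 was reached by 5 members (14.7%; HNRNPAB, TAF15, PTBP1, PCBP4 and HNRNPUL2), compared with 27.0% of all loci. The libraries of the groups did not overlap for 9 members (26.5%), compared with 33.9% of all loci: PCBP2 and HNRNPUL2 were higher, and PCBP4, HNRNPAB, TAF15, PTBP1, PCBP1, HNRNPK and HNRNPF lower. Libraries with the same replicate number deviated together, and with the replicate number as a block 0 of 34 members were called, compared with 9.0% of all loci. Without si-CTRL replicate 1, 4 of 34 were called (11.8%; HNRNPAB, TAF15 and PTBP1 lower, HNRNPUL2 higher), compared with 15.1% of all loci. Under each of these call rules the share of members was below that of all loci. The rules overlap and draw on the same libraries, so they are not independent of each other. With 34 members the shares differed by few genes, and the difference was not tested. For the loci called lower the shares were close, at 5.88% of members and 6.23% of all loci.

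**Figure D1:**
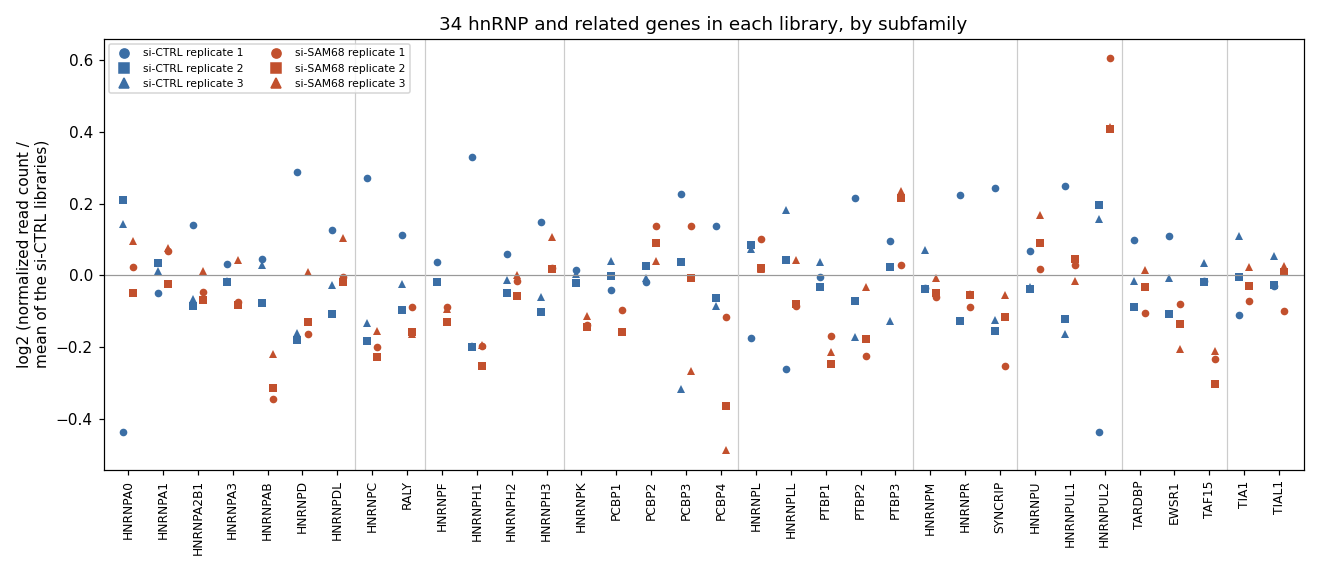
Normalized read count of each of the 34 members in each library, as log2 of its ratio to the mean of the 3 si-CTRL libraries (vertical axis), with si-CTRL in blue, si-SAM68 in orange and grey lines between subfamilies. All 3 si-SAM68 points of HNRNPAB and TAF15 lie below the control points, and si-CTRL replicate 1 (blue circles) stands far from the other control libraries for HNRNPA0, HNRNPH1, HNRNPC and HNRNPUL2, among others.

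The size of the changes was bounded closely. The median log2 fold change of the members was -0.04, compared with 0.01 over all loci, and 24 of the 34 members (70.6%) lay below 0, compared with 49.1% of all loci. Part of this lean rested on single control libraries: 20 members lay below 0 without si-CTRL replicate 1 (median -0.02) and 26 without si-CTRL replicate 2 (median -0.06). The share below 0 was not taken for loci as abundant as the members. The median absolute log2 fold change was 0.08, compared with 0.19 over all loci and 0.14 over the 7991 loci averaging 1000 or more. The 95% interval of the fold change lay inside 1.5-fold in both directions for 33 members, with HNRNPUL2 as the exception. This was so for 56.2% of all loci and 87.1% of those averaging 1000 or more. The latter loci are not matched in level to the members, whose means ran from 305 (PCBP3) to 108691 (HNRNPA2B1). Neither the median absolute log2 fold change nor the share of intervals was taken for loci of like level. For 13 members the interval lay inside 1.2-fold: HNRNPA1, HNRNPA2B1, HNRNPA3, HNRNPDL, HNRNPF, HNRNPH2, HNRNPH3, HNRNPL, HNRNPM, PCBP2, TARDBP, TIA1 and TIAL1. For members on a joint locus, HNRNPA1, HNRNPA3, HNRNPH2 (with RPL36A) and PCBP2 (with PRR13) among these, the interval is that of the whole locus. It does not bound the member alone. With 1 library left out the count inside 1.5-fold was between 31 and 34. The count inside 1.2-fold was then between 5 (without si-SAM68 replicate 2) and 22 (without si-CTRL replicate 1).

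**Figure D2:**
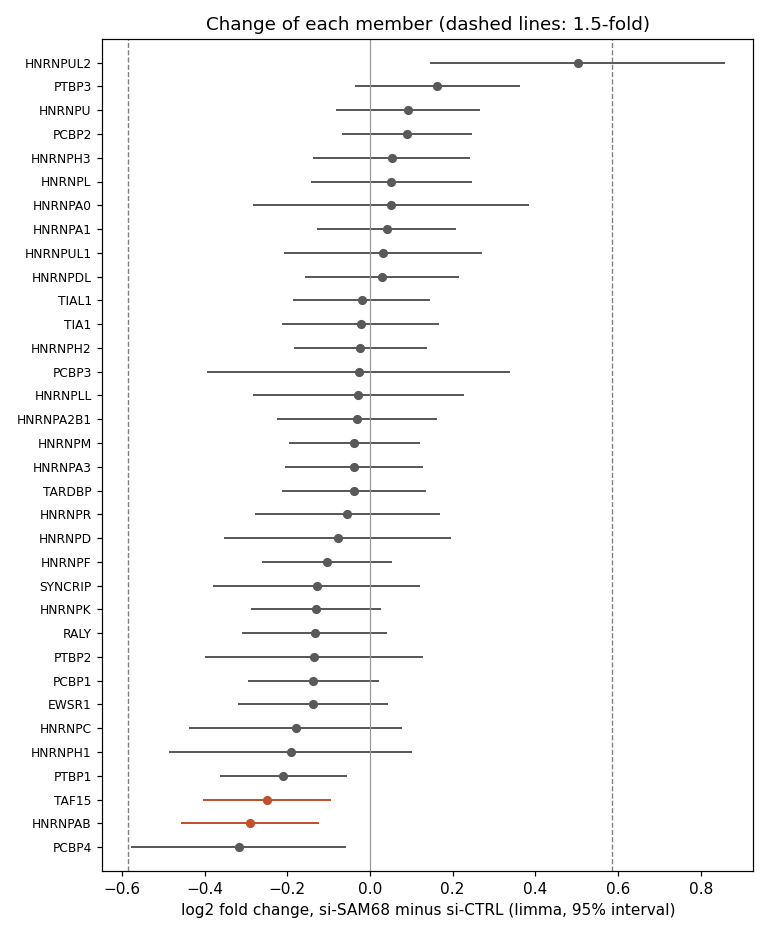
Log2 fold change of each member, si-SAM68 minus si-CTRL (horizontal axis), with its 95% interval from limma as a line, for 3 libraries a group. The 2 members with an adjusted p under 0.05, HNRNPAB and TAF15, are in orange, and the interval of HNRNPUL2 is the one that crosses a dashed line at 1.5-fold.

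Among the hnRNP A/B and D proteins (7 members), which bind AU-rich and UAGG-containing RNA through paired RNA recognition motifs, HNRNPAB was lower in si-SAM68. The gene (hg19, chr5:177631506-177638183) encodes a protein found in the complex that edits APOB mRNA and in mRNA transport. Its normalized read counts were 22537, 20671 and 22237 in si-CTRL and 17202, 17555 and 18734 in si-SAM68. Every si-SAM68 library lay below every control library, and the mean fell to 81.7% of that in si-CTRL. The log2 fold change was -0.29 ± 0.07 (SE; limma, adjusted p = 0.0343), with a 95% interval from 0.73 to 0.916 for the fold. With the replicate block the adjusted p was 0.0517 and the call was lost, and with 1 library left out the log2 fold change stayed between -0.33 and -0.27 while the adjusted p ran from 0.0186 to 0.14, with 2 of 6 such fits under the threshold.

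HNRNPA1, the repressor of exons known to act with Sam68, did not pass the test. Its locus, shared with the pseudogene HNRNPA1P10, had 98204, 104144 and 102583 normalized reads in si-CTRL and 106456, 99970 and 107158 in si-SAM68. The groups overlapped, with a log2 fold change of 0.04 ± 0.07 (limma, adjusted p = 0.772) and a 95% interval of 0.916 to 1.15 for the fold.

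HNRNPA2B1, a reader of exon and microRNA motifs related to hnRNP A1, had 121238, 103633 and 105091 in si-CTRL and 106504, 104805 and 110874 in si-SAM68 (log2 fold change -0.03 ± 0.09; limma, adjusted p = 0.853). HNRNPA3, a close paralog of both, had 79298, 76561 and 76723 in si-CTRL and 73626, 73209 and 79788 in si-SAM68 (log2 fold change -0.04 ± 0.07; adjusted p = 0.78). Both genes overlapped between the groups, and si-CTRL replicate 1 was the highest control library in each. CBX3, whose locus overlaps that of HNRNPA2B1, had 25.5% of its mean level, and the strand used in counting is not given in the sources used here.

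HNRNPA0 and HNRNPD, which both bind AU-rich elements and act on mRNA stability, were set apart by 1 control library. HNRNPA0 had 12118, 18967 and 18115 in si-CTRL and 16665, 15841 and 17519 in si-SAM68, with a log2 fold change of 0.05 ± 0.15 (limma, adjusted p = 0.863). HNRNPD, encoding AUF1, had 31538, 22782 and 23121 in si-CTRL and 23047, 23597 and 25967 in si-SAM68, with a log2 fold change of -0.08 ± 0.12 (limma, adjusted p = 0.723). In si-CTRL replicate 1 HNRNPA0 was low and HNRNPD high, and without that library the log2 fold changes were -0.15 and 0.07, of opposite sign to those over all libraries. HNRNPDL, an AUF1-like gene that limits its own mRNA through alternative splicing of its 3′UTR, had 23844, 20271 and 21434 in si-CTRL and 21764, 21558 and 23506 in si-SAM68 (log2 fold change 0.03 ± 0.08; limma, adjusted p = 0.853). The ratio of HNRNPAB to HNRNPD was 0.715, 0.907 and 0.962 in si-CTRL and 0.746, 0.744 and 0.721 in si-SAM68, with overlap.

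TAF15, a FET protein with an N-terminal low-complexity domain that binds RNA polymerase II and U1 snRNP, was the other member called. The gene (hg19, chr17:34136459-34174245) had 13131, 13106 and 13615 normalized reads in si-CTRL and 11313, 10769 and 11476 in si-SAM68. All si-SAM68 libraries lay below the controls, which differed by little among themselves, and the mean fell to 84.2% of the control mean. The log2 fold change was -0.25 ± 0.07 (limma, adjusted p = 0.0461), with a 95% interval of 0.757 to 0.936 for the fold. The call was lost with the replicate block (adjusted p = 0.0666), and of the 6 fits without 1 library only that without si-CTRL replicate 1 kept it (adjusted p = 0.0161; the highest of the 6 was 0.208, without si-SAM68 replicate 2), at log2 fold changes of -0.27 to -0.22.

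EWSR1, also a FET gene, and TARDBP did not pass the test. EWSR1 had 24120, 20750 and 22246 in si-CTRL and 21174, 20357 and 19406 in si-SAM68, overlapping, with a log2 fold change of -0.14 ± 0.08 (limma, adjusted p = 0.3). The ratio of TAF15 to EWSR1 overlapped between the groups, at 0.544 to 0.632 in si-CTRL and 0.529 to 0.591 in si-SAM68. TARDBP, encoding TDP-43, a repressor of cryptic exons at UG repeats, had 14907, 13097 and 13771 in si-CTRL and 12944, 13612 and 14082 in si-SAM68 (log2 fold change -0.04 ± 0.08; limma, adjusted p = 0.79).

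Of the hnRNP L and PTB proteins (5 members), which bind CA repeats and pyrimidine tracts, PTBP1 was separate between the groups but did not pass the threshold. PTBP1, the main repressor of neuronal and muscle exons in other cells, had 17454, 17139 and 17966 normalized reads in si-CTRL and 15587, 14763 and 15103 in si-SAM68. All si-SAM68 libraries lay below the controls, with a mean of 86.5% of that in si-CTRL. Its log2 fold change was -0.21 ± 0.07 (limma, adjusted p = 0.0783; 0.103 with the replicate block), and without si-CTRL replicate 1 the adjusted p was 0.0348 at the same log2 fold change of -0.21. Of the 6 fits without 1 library this was the only one under 0.05, and the highest adjusted p was 0.274 (limma). The locus, which also bears MIR4745, overlaps POLRMT, whose mean was 12% of that of PTBP1.

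PTBP3, a paralog first described in haematopoietic cells, had a positive log2 fold change that did not pass the test. It had 7678, 7311 and 6580 in si-CTRL and 7340, 8341 and 8464 in si-SAM68. The groups overlapped through si-SAM68 replicate 1, and the log2 fold change was 0.16 ± 0.09 (limma, adjusted p = 0.268). The ratio of the normalized read counts of PTBP1 and PTBP3, in which gene length enters as the same factor in every library, was 2.27, 2.34 and 2.73 in si-CTRL and 2.12, 1.77 and 1.78 in si-SAM68. The ratio was lower in every si-SAM68 library. This and the other 4 ratios were chosen after the values had been seen, and no test was made of them. PTBP2 had 1049, 860 and 801 in si-CTRL and 773, 798 and 884 in si-SAM68 (log2 fold change -0.14 ± 0.12; limma, adjusted p = 0.496), and the ratio of PTBP1 to PTBP2 overlapped, at 16.6 to 22.4 in si-CTRL and 17.1 to 20.2 in si-SAM68.

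HNRNPL, which binds CA-rich RNA and represses or activates exons by position, had 8129, 9715 and 9648 in si-CTRL and 9836, 9298 and 9281 in si-SAM68. The groups overlapped, with si-CTRL replicate 1 the lowest library, and the log2 fold change was 0.05 ± 0.09 (limma, adjusted p = 0.743). HNRNPLL, its paralog best known from exon skipping of CD45 in T cells, had 1867, 2306 and 2536 in si-CTRL and 2110, 2118 and 2306 in si-SAM68 (log2 fold change -0.03 ± 0.11; limma, adjusted p = 0.903). The ratio of HNRNPL to HNRNPLL was 3.80 to 4.35 in si-CTRL and 4.03 to 4.66 in si-SAM68. The 95% interval of the fold was 0.907 to 1.18 for HNRNPL and 0.823 to 1.17 for HNRNPLL.

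Of the poly(C)-binding KH proteins (5 members), relatives of Sam68 in that they bind RNA through KH domains, 4 had groups of libraries that did not overlap (33.9% of all loci) and none passed the test. PCBP4 had 1286, 1119 and 1101 in si-CTRL and 1079, 908 and 834 in si-SAM68, with the lowest log2 fold change of any member at -0.32 ± 0.12 (limma, adjusted p = 0.11). Its range of values within each group was wide beside the step between the groups, which was 1101 against 1079 at the nearest libraries. PCBP1 had a control mean of 56418 ± 1572 and a si-SAM68 mean of 51302 ± 1235 (SD, n = 3; limma, adjusted p = 0.241), and HNRNPK, a cofactor of transcription and translation as well as splicing, had means of 81926 ± 1061 and 74806 ± 892 (adjusted p = 0.256). They stood at 90.9% and 91.3% of the control mean. PCBP2, on a locus shared with PRR13, was slightly higher, at 35434 to 36560 in si-CTRL and 36954 to 39522 in si-SAM68 (log2 fold change 0.09 ± 0.07; limma, adjusted p = 0.44). PCBP3, at 248 to 361 in si-CTRL and 257 to 340 in si-SAM68, had the lowest read count of all members.

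The hnRNP F/H proteins, which bind G-runs beside splice sites, gave no call among 4 members. HNRNPF was separate between groups, at 66784 to 69404 in si-CTRL and 61874 to 63620 in si-SAM68, with a log2 fold change of -0.10 ± 0.07 (limma, adjusted p = 0.37). HNRNPH1 had 47364, 32795 and 32855 in si-CTRL and 32906, 31653 and 32929 in si-SAM68. The log2 fold change of -0.19 ± 0.13 (limma, adjusted p = 0.38) rested on the high value of si-CTRL replicate 1, without which it was -0.01. HNRNPH2 (log2 fold change -0.02; locus shared with RPL36A) and HNRNPH3 (0.05) overlapped between the groups.

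HNRNPC, which binds uridine tracts as a tetramer and keeps Alu sequences out of mRNA, had 78318, 57233 and 59217 in si-CTRL and 56554, 55429 and 58320 in si-SAM68. As with HNRNPH1, the log2 fold change of -0.18 ± 0.11 (limma, adjusted p = 0.344) shrank to -0.04 without si-CTRL replicate 1. RALY, a relative of hnRNP C, had a log2 fold change of -0.13 ± 0.08 (limma, adjusted p = 0.296). HNRNPM, which acts in exon choice of CD44, had means of 28133 ± 1230 and 27388 ± 527, a log2 fold change of -0.04 ± 0.07 (limma, adjusted p = 0.769). HNRNPR and SYNCRIP (hnRNP Q), paralogs found in mRNA transport granules, had log2 fold changes of -0.05 and -0.13, with si-CTRL replicate 1 the highest library of each. TIAL1, the paralog of TIA1, had a log2 fold change of -0.02 ± 0.07 (limma, adjusted p = 0.888).

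The hnRNP U proteins, with a SAP domain that binds the nuclear scaffold, gave no call. HNRNPU, known for its role in chromatin and Xist RNA attachment, had 69936 to 75174 in si-CTRL and 72592 to 80572 in si-SAM68 (log2 fold change 0.09 ± 0.08; limma, adjusted p = 0.481). HNRNPUL1 overlapped as well (log2 fold change 0.03 ± 0.11; limma, adjusted p = 0.879). The locus of HNRNPUL2 (hg19, chr11:62457734-62494944) had 619, 958 and 934 normalized reads in si-CTRL and 1271, 1110 and 1115 in si-SAM68. All si-SAM68 libraries were above the controls, with the highest log2 fold change of any member at 0.50 ± 0.16 (limma, adjusted p = 0.0726). Without the low si-CTRL replicate 1 it was 0.30, with an adjusted p of 0.0446. Of the 6 fits without 1 library, 2 were under 0.05 for HNRNPUL2, and the highest adjusted p was 0.208 (limma). The locus joins HNRNPUL2 with BSCL2 and their readthrough gene, whose reads cannot be told apart from those of HNRNPUL2.

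The spread within the control group shaped several of these intervals. In si-CTRL replicate 1, 8 members lay more than 0.25 log2 units above the mean of the other 2 control libraries (HNRNPH1, HNRNPC, PTBP2, SYNCRIP, HNRNPD, HNRNPR, PCBP3 and HNRNPUL1) and 4 lay more than 0.25 below (HNRNPLL, HNRNPA0, HNRNPL and HNRNPUL2). The deviations ran from -0.61 to 0.53. Of the loci averaging 1000 or more, 17.8% lay above and 16.6% below by as much in that library. In the other 5 libraries 0 to 5 members deviated by this amount, and in si-SAM68 replicate 2, the library with the high rRNA share, none did. The origin of the deviations of si-CTRL replicate 1 was not tested.

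**Figure D3:**
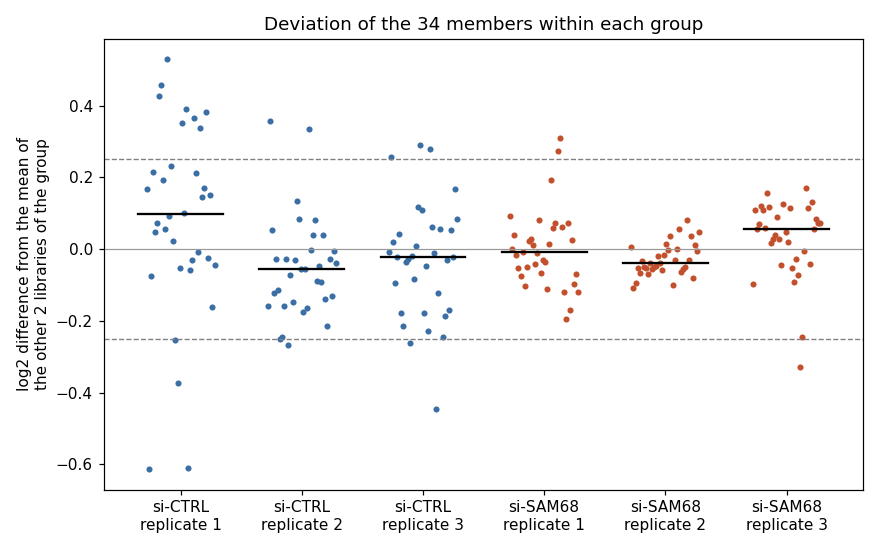
Log2 difference of each of the 34 members in a library from the mean of the other 2 libraries of its group (vertical axis), 1 column of points per library, with the median as a black bar and dashed lines at 0.25 on either side. The points of si-CTRL replicate 1 spread from -0.61 to 0.53, and those of si-SAM68 replicate 2 from -0.11 to 0.08.

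Other proteins of RNP complexes were read out of the same fit. Of 19 listed genes, 18 were found, 17 were tested and A1CF, at or near 0 in every library, was not. Among the 17, 3 were lower in si-SAM68 at an adjusted p under 0.05 and 0 were higher, compared with 6.23% and 4.47% of all loci. The median log2 fold change was -0.16 (-0.11 without si-CTRL replicate 1), and 15 of 17 lay below 0, compared with 49.1% of all loci. GRSF1, a G-rich sequence-binding relative of hnRNP F/H that works in mitochondrial RNA granules, had 4749, 5518 and 5915 in si-CTRL and 3713, 3777 and 4016 in si-SAM68. CIRBP, the cold-inducible RNA-binding protein, had 5479, 5912 and 5728 in si-CTRL and 4620, 3790 and 3991 in si-SAM68. FUBP3, a KH protein that binds AU-rich elements, had 11000, 8062 and 8316 in si-CTRL and 6081, 5955 and 6001 in si-SAM68 on a locus shared with MIR6856. For each of the 3 the groups were separate, and all 3 calls held with the replicate block. The log2 fold changes were -0.49 ± 0.09 for GRSF1 (limma, adjusted p = 0.0115), -0.47 ± 0.09 for CIRBP (adjusted p = 0.0113) and -0.59 ± 0.11 for FUBP3 (adjusted p = 0.0116). Without 1 of the si-SAM68 libraries, whichever it was, only 1 of the 17 was called. For FUBP3 the log2 fold change was -0.45 without si-CTRL replicate 1.

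**Figure D4:**
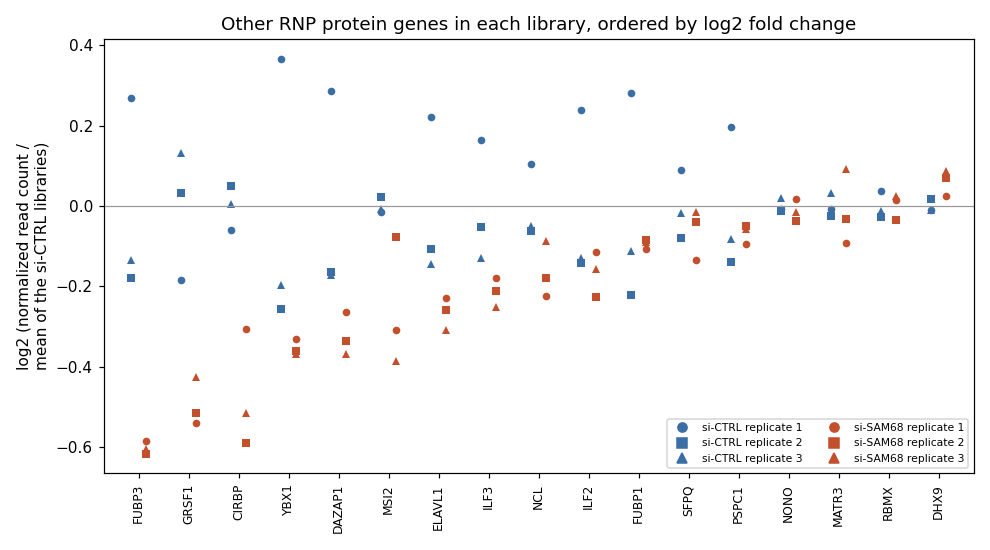
Normalized read count of the 17 tested genes of other RNP proteins in each library, as log2 of its ratio to the mean of the 3 si-CTRL libraries (vertical axis), ordered by log2 fold change. The si-SAM68 points (orange) of FUBP3, GRSF1 and CIRBP lie below the control points (blue), and si-CTRL replicate 1 is the highest control point of FUBP3, YBX1, DAZAP1 and FUBP1.

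Genes whose exons are known to be chosen by hnRNPs were measured at 11 loci, of which 1 was higher and 1 lower, compared with 4.47% and 6.23% of all loci. FAS, whose alternative exon decides between a membrane-bound and a soluble death receptor and is acted on by PTBP1, TIA1 and hnRNP A1, had 834, 972 and 957 in si-CTRL and 1304, 1405 and 1376 in si-SAM68. It rose with a log2 fold change of 0.57 ± 0.09 (limma, adjusted p = 0.00627), and each fit without 1 library kept the call. The joint locus of SMN1 and SMN2, where hnRNP A1 and Sam68 are known to repress an exon of SMN2, had 24238, 22402 and 23876 in si-CTRL and 18280, 18514 and 19616 in si-SAM68. It fell by 0.32 on the log2 scale (limma, adjusted p = 0.0212; 0.0376 with the replicate block), and 2 of the 6 fits without 1 library kept the call. BCL2L1, whose splice sites Sam68 and hnRNP A1 are known to choose, had 4908 to 5122 in si-CTRL and 4765 to 5235 in si-SAM68 (log2 fold change 0.00 ± 0.07; limma, adjusted p = 0.984). PKM, target of hnRNP A1, hnRNP A2 and PTB, was separate between the groups but not called, at 277276 to 314860 in si-CTRL and 327020 to 337107 in si-SAM68 (log2 fold change 0.18 ± 0.09; limma, adjusted p = 0.199, and 0.0456 without si-CTRL replicate 1). These are gene totals and do not give the share of any isoform.

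Loci named as pseudogene or antisense partner of a member were found 6 times, and 5 of these were tested. Both counts include HNRNPA1P10, which stands on the locus of HNRNPA1 itself and has the values given there. HNRNPA1P33 (hg19, chr10:47133247-47133868), a processed copy of HNRNPA1, had 140, 150 and 113 normalized reads in si-CTRL and 268, 276 and 264 in si-SAM68. It was separate between the groups and rose by a factor of 2.01 (95% interval 1.61 to 2.51; limma, adjusted p = 0.00302), and each fit without 1 library kept the call. In si-CTRL its level was 0.132% of that of the HNRNPA1 locus, so that reads assigned to the wrong copy cannot be told apart from its own. PCBP1-AS1, antisense to PCBP1 and on a locus shared with ASPRV1, had 2686, 2745 and 2705 in si-CTRL and 2248, 2267 and 2222 in si-SAM68. It fell by 0.27 on the log2 scale (limma, adjusted p = 0.0404; 0.0648 with the replicate block, by which the call was lost), and 1 of the 6 fits without 1 library kept the call. RALY-AS1 (log2 fold change 0.25; limma, adjusted p = 0.323) and HNRNPA3P1, at 4.47 to 16.1 normalized reads, did not pass the test.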

How the data were processed

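The authors deposited 1 table for the series, whose values are a signal: reads counted on each FAST DB locus (hg19) divided by the DESeq2 size factor of the library. The submitters' processing notes name FastQC, Picard, SAMtools, STAR 2.4.0 and DESeq2, and the counting strand is not given in the sources used here. Every value was a whole multiple (tolerance 0.01) of 1 step per library, and these multiples were taken as reads. Values were tested as log2(normalized read count + 1) with limma 3.58.1 in R 4.3.3 (lmFit, eBayes with a trend) over the 18849 loci averaging 10 or more, and p-values were adjusted by Benjamini-Hochberg over all of them. On this scale the change of low genes is understated. Intervals are 95% intervals of the fit. edgeR 4.0.16 and DESeq2 1.42.0 on the recovered reads, other pseudocounts, filters and scalings, a replicate block and the removal of each library were alternatives. Libraries of the same number correlated in their deviations from the group means (0.105, 0.231 and 0.125; other pairs -0.125 to 0.007), so the numbers, which come from the labels, were taken to pair them in the replicate block. The calls, intervals and figures come from the fit without this block, which leaves the pairing out. With the block 0 of the 34 members were called. Members and lists were chosen with earlier results of these data known, and 1 further gene of the list of other RNP proteins is not reported here. Full values are given for members with an adjusted p under 0.05, for HNRNPL, HNRNPLL, PTBP1 and HNRNPA1, and for their subfamilies. Values of other members printed library by library (PCBP4, HNRNPH1, HNRNPC, HNRNPUL2 and TIA1) were chosen after they had been seen. The scripts were tested on simulated data.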

Additional observations from a re-analysis of the deposited data

How the results depend on the processing

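The count of members called lower (2) was 0 without a filter on low values, with eBayes without a trend, with the replicate block and with edgeR with the replicate block, and ran from 0 to 3 with 1 library left out. Members called higher (0) were 1 with DESeq2 (HNRNPUL2; PTBP1 then joined those called lower) and 0 to 1 with 1 library left out, and at the thresholds of the study 0 became 0 to 1. Of the other RNP proteins, 3 were lower, 0 with eBayes without a trend and 1 to 3 with 1 library left out. The block changed the call of HNRNPAB, TAF15, PCBP1-AS1 and KRT8 and of no other gene named. Over all 18 alternatives 21 members kept their direction. With quantile normalization the log2 fold change turned to 0.015 for PCBP3, -0.0043 for HNRNPDL and -0.017 for HNRNPUL1. With 1 library left out the log2 fold change crossed 0 for HNRNPD (-0.16 to 0.075), HNRNPR (-0.11 to 0.062), TARDBP (-0.082 to 0.012), HNRNPA2B1 (-0.072 to 0.041), HNRNPLL (-0.15 to 0.068), PCBP3 (-0.18 to 0.094), HNRNPH2 (-0.048 to 0.0071), TIA1 (-0.077 to 0.033), TIAL1 (-0.044 to 0.019), HNRNPDL (-0.022 to 0.095), HNRNPUL1 (-0.044 to 0.16), HNRNPA0 (-0.15 to 0.17) and HNRNPL (-0.032 to 0.096), none of them called. The cause was not tested. Between libraries of a group the chi-square of the reads per degree of freedom was 12.6 to 387.5, so that they differed by more than counting error.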

Other observations

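The enzymes and carriers that act on hnRNP proteins were measured as well. TNPO1 and TNPO2, the transportins that carry hnRNPs with a PY nuclear localization signal into the nucleus, and PRMT1, PRMT3 and PRMT5, which methylate their arginines, gave 0 calls among 5 loci with limma, edgeR and DESeq2 alike at an adjusted p under 0.05, and 1 (TNPO2) had an unadjusted p under 0.05 with limma. TNPO1 had 24975, 28485 and 28668 normalized reads in si-CTRL and 28688, 32085 and 32371 in si-SAM68 (log2 fold change 0.18; limma, adjusted p = 0.203). TNPO2 had 10639, 8513 and 8714 in si-CTRL and 7946, 7811 and 7272 in si-SAM68 (log2 fold change -0.27; limma, adjusted p = 0.104). Both were separate between the groups, TNPO1 upward and TNPO2 downward. PRMT3 was also separate, upward, at 2820, 2814 and 2883 in si-CTRL and 3052, 2938 and 3265 in si-SAM68 (log2 fold change 0.12; limma, adjusted p = 0.347). PRMT1 and PRMT5 overlapped. Over all tested loci, 33.9% were separate between the groups and 10.7% were called at an adjusted p under 0.05 (limma).

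MYC, a transcription factor known to raise the expression of PTBP1, HNRNPA1 and HNRNPA2B1, had 7621, 5055 and 5034 in si-CTRL and 4192, 4272 and 4080 in si-SAM68. All si-SAM68 libraries lay below the controls, at a log2 fold change of -0.47 ± 0.14 (limma, adjusted p = 0.0654), and without si-CTRL replicate 1 it was -0.27 with an adjusted p of 0.0136. Of the 6 fits without 1 library, 2 were under 0.05 for MYC, and the highest adjusted p was 0.211 (limma). NEK2, a mitotic and splicing kinase, had 3702, 3323 and 3290 in si-CTRL and 3989, 3708 and 4169 in si-SAM68 (log2 fold change 0.20; limma, adjusted p = 0.152, and 0.0308 without si-CTRL replicate 1). That fit was the only 1 of the 6 under 0.05 for NEK2, and the highest adjusted p was 0.387 (limma). CD44 and CCND1, further genes with exons chosen by hnRNPs, likewise had an adjusted p of 0.476 and 0.185 over all libraries and of 0.0134 and 0.00554 without si-CTRL replicate 1, at log2 fold changes of 0.36 and 0.34. Without si-SAM68 replicate 2 their adjusted p was 0.713 and 0.39 (limma). Of all loci, 15.1% were called without si-CTRL replicate 1, compared with 10.7% over all libraries.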
